A study of Mus musculus with 10 samples.

Results

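A set of 8 genes whose RNA is used to mark Paneth cells was followed in ileal crypts: Mmp7, Ang4, Itln1, Mptx1, Mptx2, Pnliprp2, Habp2 and Nupr1. They were chosen by name, as products reported for these cells outside the alpha-defensin family, and make up 8 of the 28987 gene IDs listed in each library. All 8 passed the filter on low values (at least 1 TPM, a length-normalised share of all transcripts, in at least 2 libraries), as did 13056 genes in all. Paneth cells sit at the base of small intestinal crypts beside the stem cells and release granules of antimicrobial proteins into the crypt lumen. Most granule proteins are bactericidal peptides, lectins or enzymes, and in mice some of them need proteolytic activation. The label of granule products does not suit every gene of the set, since Nupr1 encodes a small stress-induced nuclear protein that is not secreted.

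RNA was sequenced single-end from crypts of C57Bl6 mice, all labelled male and 12 weeks old, in a study whose title names Paneth cell function under STAT5 activation. There were 3 control libraries with the genotype VilCreER;Stat5 (STAT5+/+), here Ctrl, and 2 libraries with VilCreER;Stat5 (STAT5IEC-/-), here KO. The remaining 5 libraries carried VilCreER;icS5 (STAT5IEC+++), here OE. All groups thus carry VilCreER, a Cre recombinase fused to an oestrogen receptor domain and driven by the villin promoter, which is active in the intestinal epithelium. The label icS5 is not spelled out, and libraries from that allele's line without overexpression were not analysed here. The labels do not say whether libraries of a group are from different animals. A p-value here therefore reflects only how these samples vary, which may be technical. The material is bulk tissue, in which fewer Paneth cells and less RNA per cell cannot be told apart, and the cell that made each transcript was not measured.

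Values are scaled TPM, the deposited TPM divided by a median-ratio factor for each library, and a log2 difference is taken on log2(scaled TPM + 1), which understates changes of genes near 1. The sequencing depth is unknown, since TPM keep no read numbers. Stat5b was at 0.970 to 1.76 scaled TPM in Ctrl, 0.430 and 0.482 in KO and 1.49 to 5.53 in OE, and the lowest OE value, from the library labelled OE 1, lay inside the Ctrl range. Stat5a was at 1.07 to 2.60 in Ctrl, 0.336 and 0.637 in KO and 1.56 to 3.55 in OE. For Stat5a both OE 1 (1.56) and OE 2 (2.10) lay inside the Ctrl range. Ctrl 2 stood apart, with 83.7% of its TPM from mitochondrially encoded genes against 43.3% to 57.0% elsewhere and with a scaling factor of 0.295 against 0.831 to 1.31. Its summed level of 10 other Paneth cell markers, among them Lyz1 and several alpha-defensins, was 537 scaled TPM against 4667 to 17303 elsewhere, while its 12 enterocyte markers summed to 15391 against 1512 to 9505. In 3 libraries 4 genes of the Y chromosome (Uty, Kdm5d, Eif2s3y and Ddx3y) summed to 3.45 (Ctrl 3), 0.250 (OE 3) and 0.140 TPM (OE 4), against 32.3 to 131 in the others, which goes against the male label. The comparisons of groups for the 8 genes, and the main correlations and spreads of the set, are therefore given with and without Ctrl 2 and with and without these 3 libraries.

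Itln1 was the most abundant of the 8 genes and Habp2 the least. By the median over the 10 libraries, on a scale per transcript length, Itln1 stood at 880.3 scaled TPM, followed by Ang4 at 188, Mptx2 at 178, Mmp7 at 72.2, Pnliprp2 at 14.2, Mptx1 at 5.01, Nupr1 at 3.84 and Habp2 at 1.22. Itln1 lay above Ang4 in 10 of 10 libraries. The order of the next genes was not the same throughout: Ang4 lay above Mptx2 in 8 libraries, Mmp7 above Pnliprp2 in 6 and Mptx1 above Nupr1 in 7. Together Itln1 and Ang4 gave 69.5% to 86.8% of the summed level of the set, which was 169 scaled TPM in Ctrl 2 and 690.4 to 4738 in the other libraries. In Ctrl 2 the level was the lowest of all libraries for 7 of the 8 genes, in scaled and in deposited values, and Mptx1 was the exception.

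**Figure D1:**
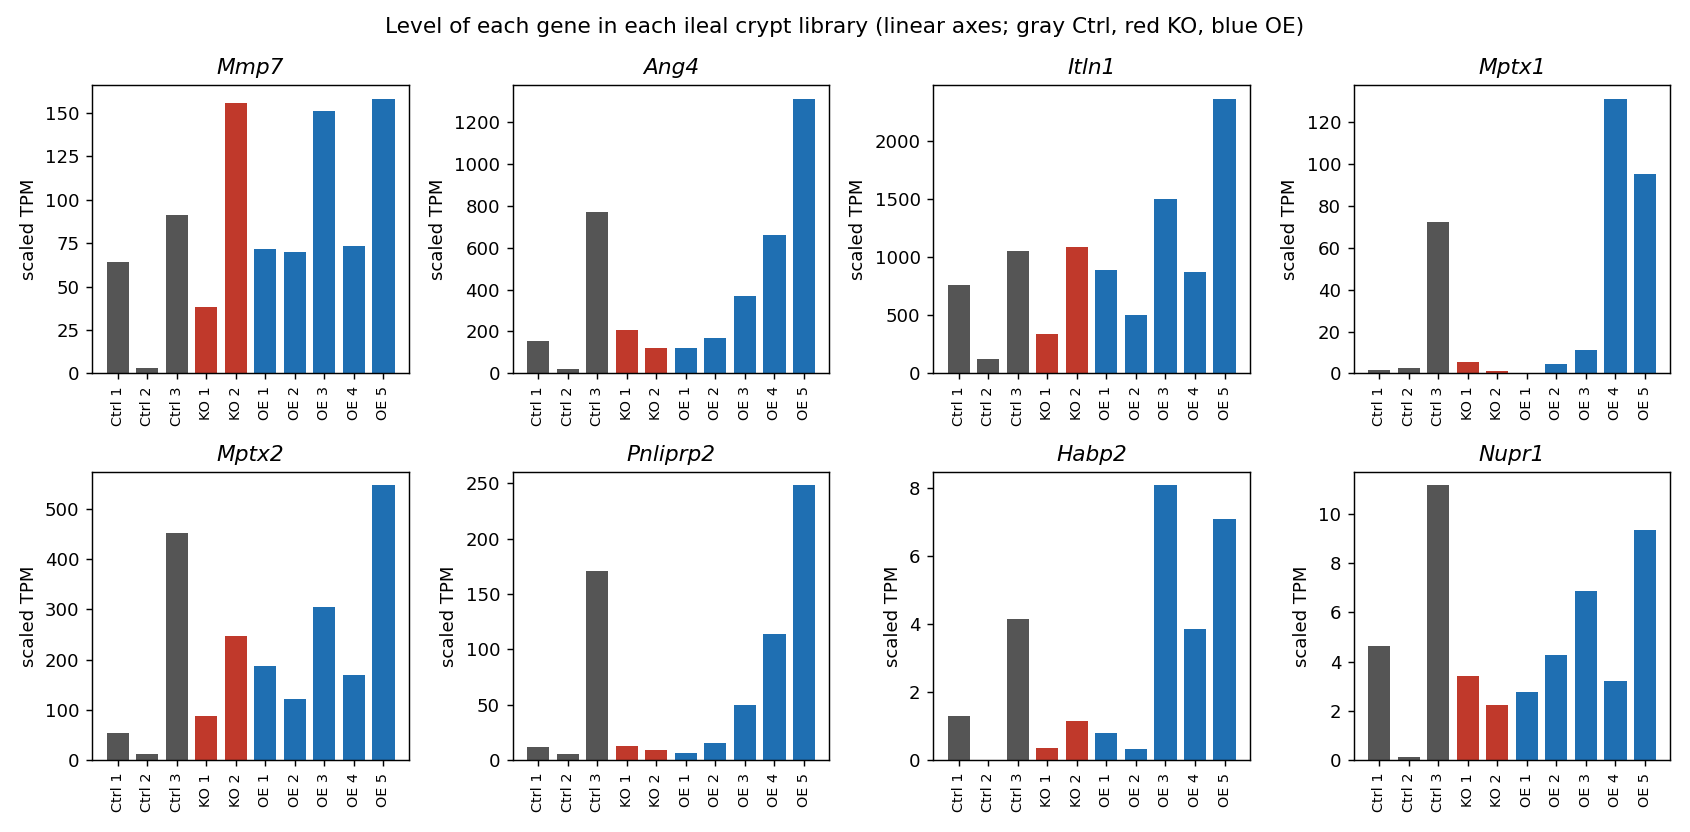
Scaled TPM of each of the 8 genes (y axis, linear, its own range in each panel) in each of the 10 libraries (x axis), with Ctrl in gray, KO in red and OE in blue; each bar is 1 library. Ang4, Mptx1, Pnliprp2 and Habp2 have their 4 highest bars in Ctrl 3, OE 3, OE 4 and OE 5, and every gene overlaps between the groups.

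Mmp7 (ENSMUSG00000018623, chromosome 9, 7692090 to 7699585 in GRCm38, the assembly also called mm10) encodes matrilysin, the metalloprotease that cuts mouse alpha-defensin precursors into active peptides. Its level was 63.9, 3.42 and 91.0 scaled TPM in Ctrl 1, 2 and 3, with 37.9 for KO 1 and 155 for KO 2. In OE 1 to 5 it was 71.4, 69.8, 151, 73.0 and 158. KO 1 lay below Ctrl 1 and Ctrl 3 and KO 2 lay beside the highest OE library, so that the 2 KO libraries spanned nearly the whole range outside Ctrl 2. Group means were 52.8 ± 44.8 over the 3 Ctrl libraries (mean ± SD), 96.6 ± 83.0 over the 2 KO libraries and 105 ± 45.5 over the 5 OE libraries. Mmp7 had the narrowest range of the set outside Ctrl 2, 4.17-fold between lowest and highest library. Its ratio to its substrates' transcripts varied little beside that of most of the set: relative to the mean log2 level of 16 alpha-defensin genes in the same library, its log2 level ran from -1.68 to -0.08 over the 9 libraries other than Ctrl 2, with an SD of 0.49.

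Ang4 (ENSMUSG00000060615, chromosome 14, 51763878 to 51773590) encodes angiogenin 4, a secreted ribonuclease with bactericidal activity. It was at 154, 22.3 and 767 scaled TPM in Ctrl 1, 2 and 3. KO 1 had 207 and KO 2 had 124, and the values of OE 1 to 5 were 122, 169, 367, 659 and 1309. Ctrl 3, OE 3, OE 4 and OE 5 were the 4 high libraries, and both KO libraries fell among the low ones together with Ctrl 1, OE 2 and the library labelled OE 1. Means were 314 ± 397 over the 3 Ctrl libraries (mean ± SD), 165 ± 59.0 over the 2 KO libraries and 525 ± 487 over the 5 OE libraries. Its nearest relatives were almost silent: Ang5 was listed at 0 in every library, and Ang2 and Ang6 did not exceed 0.296 and 0.289 scaled TPM. Ang itself, a more distant family member, was at 5.79 to 13.3 outside Ctrl 2, where it was listed at 0. Of the 660 stretches of 50 bases in the Ang4 transcript, 4.70% also occur in transcripts of other genes, mostly in Ang5.

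Pnliprp2 (ENSMUSG00000025091, chromosome 19, 58759719 to 58777534) encodes a lipase related to pancreatic lipase that also acts on phospholipids and galactolipids. It was at 12.2, 5.16 and 171 scaled TPM in Ctrl 1, 2 and 3. KO 1 had 12.8 and KO 2 had 9.13, and the values of OE 1 to 5 were 6.36, 15.6, 49.4, 114 and 248. The same 4 libraries as for Ang4 were high, each at least at 49.4, and the other 6 did not exceed 15.6. Means were 62.7 ± 93.5 over the 3 Ctrl libraries (mean ± SD), 11.0 ± 2.63 over the 2 KO libraries and 86.7 ± 99.6 over the 5 OE libraries. Because acinar cells of the pancreas also make this lipase, 13 genes of those cells were checked. They summed to 0.832 to 11.9 scaled TPM over the libraries, and Prss1, Cpa1 and Pnlip, which define the cell type, were at 0 in all 10. The filter kept 4 of the 13, and the highest by mean were Ctrc at 2.45 (up to 7.77 in Ctrl) and Cela1 at 2.25. Pnliprp1, also among the 13 and a relative of Pnliprp2, was at 1.94 in OE 5 and 1.79 in Ctrl 3. It was at 0.444 in OE 4 and lower elsewhere. Clps, which encodes colipase and is named here after its values were seen, also had its highest level in the top library of Pnliprp2, with 41.6 scaled TPM in OE 5 against 12.5 or less elsewhere.

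Ang4 and Pnliprp2 had the highest Pearson correlation of any pair of the set once Ctrl 2 was left out. Over the 9 libraries other than Ctrl 2 the correlation of their log2 levels was 0.99 (Pearson) and 0.98 (Spearman), and over all 10 libraries Pearson's r was 0.93. Mptx1 joined them, with Pearson's r of 0.96 with Ang4 and 0.96 with Pnliprp2 over the same 9 libraries. In contrast, Lyz1, the lysozyme of Paneth cells, had r of -0.39 with Ang4 and -0.36 with Pnliprp2 there. Over all 10 libraries these were 0.36 and 0.087, so the sign for Lyz1 turned with Ctrl 2. Without Ctrl 2, Ctrl 3, OE 3 and OE 4, Pearson's r was 0.99 for Ang4 and Pnliprp2, 0.97 for Ang4 and Mptx1 and 0.97 for Mptx1 and Pnliprp2 over 6 libraries, of which OE 5 alone was high. With Ctrl 2 kept and only the other 3 left out, these were 0.90, 0.74 and 0.94 over 7 libraries. For Lyz1 with Ang4 and with Pnliprp2, r was 0.58 and 0.26 over those 7 libraries and -0.23 and -0.15 over the 6. These correlations describe points that share a library and its scaling. Their promoter windows from RefSeq (GRCm38.p6, 250 bases before to 50 after the annotated start) are shown because the 2 genes move together, with capitals for matches to the STAT motif TTCNNNGAA, the TCF/LEF motif ATCAAAG or the SOX motif ATTGTT on either strand. The Ang4 window (chr14:51773541-51773840, minus strand) holds 1 STAT match, whose first base is at -192 from the start site, and the Pnliprp2 window (chr19:58759473-58759772, plus strand) holds no match to any of the 3.
Ang4: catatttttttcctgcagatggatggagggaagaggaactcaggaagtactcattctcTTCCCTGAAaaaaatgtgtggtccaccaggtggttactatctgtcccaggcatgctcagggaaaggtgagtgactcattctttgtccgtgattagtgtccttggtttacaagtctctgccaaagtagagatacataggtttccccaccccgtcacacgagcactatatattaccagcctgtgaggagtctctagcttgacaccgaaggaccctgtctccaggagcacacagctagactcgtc
Pnliprp2: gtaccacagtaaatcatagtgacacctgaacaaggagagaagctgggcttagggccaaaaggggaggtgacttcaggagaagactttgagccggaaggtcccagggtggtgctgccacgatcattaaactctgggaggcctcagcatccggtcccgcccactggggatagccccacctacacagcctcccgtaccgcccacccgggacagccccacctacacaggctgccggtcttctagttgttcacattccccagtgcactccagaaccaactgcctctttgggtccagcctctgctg

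Windows were found for all 8 genes, 9 windows in all because Mmp7 has 2 annotated starts. A STAT match was present in 2 of the 9 windows, those of Ang4 and Nupr1, against 8.3% of 32851 mouse promoter windows of the same length. Mmp7 alone had a TCF/LEF match, which lies in both of its overlapping windows, against 3.73% of all windows. The SOX motif was found in Itln1, Mptx1, Mptx2 and both Mmp7 windows, against 10.7% of all. A match is a stretch of letters and not a bound site, and no match overlapped another in these windows.

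**Figure D2:**
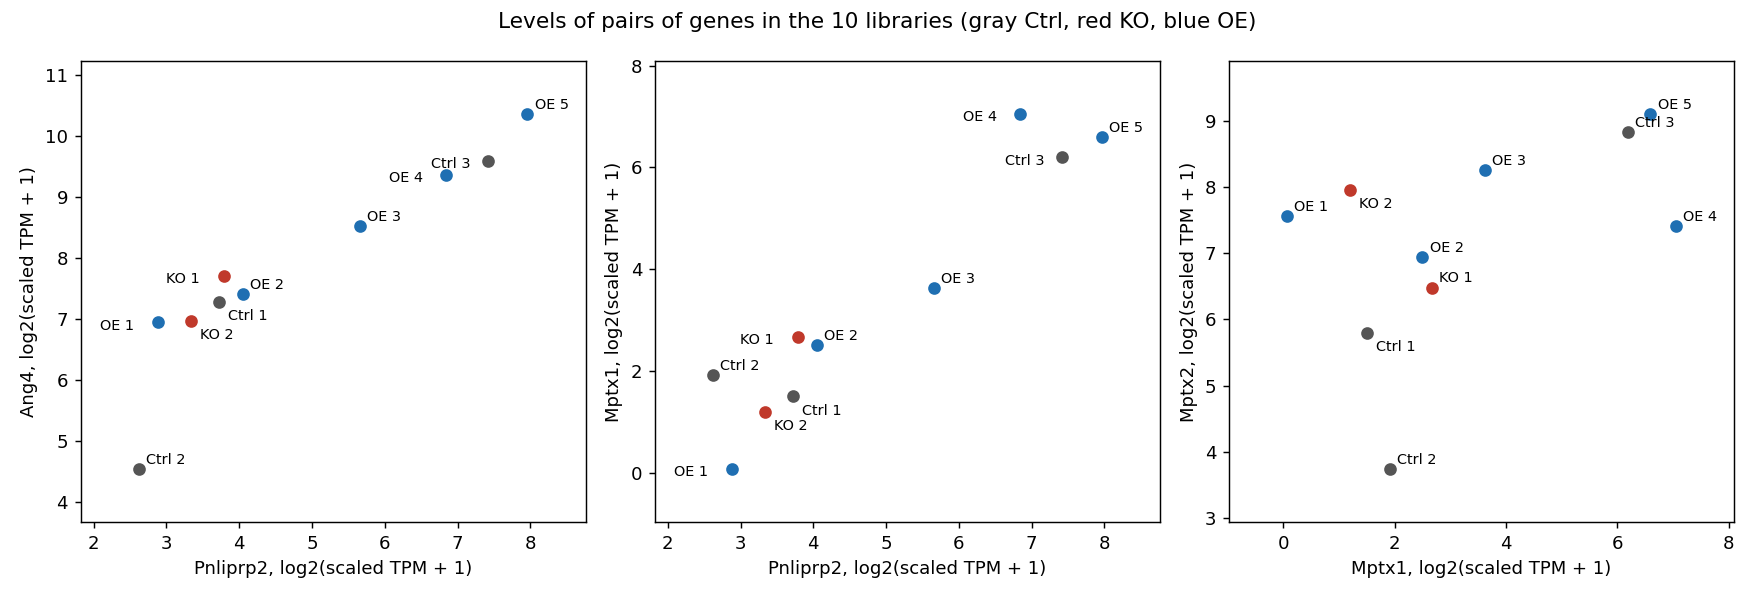
Each point is 1 library, with log2(scaled TPM + 1) of one gene on the x axis and of another on the y axis, for Pnliprp2 and Ang4, Pnliprp2 and Mptx1, and Mptx1 and Mptx2; Ctrl is gray, KO red and OE blue. Ang4 and Mptx1 climb with Pnliprp2 across libraries of different groups, while Mptx1 and Mptx2 part in the library labelled OE 1, in KO 2 and in OE 4.

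The mucosal pentraxins Mptx1 and Mptx2 are relatives of C-reactive protein and serum amyloid P, ring-shaped proteins that bind microbial surfaces and phospholipids. Both lie on chromosome 1, Mptx1 (ENSMUSG00000026531) at 174330518 to 174332873 and Mptx2 (ENSMUSG00000079180) at 173274382 to 173277777, with 1053 kb between them. Mptx1 was the most variable gene of the set: it was at 1.82, 2.77 and 72.2 scaled TPM in Ctrl 1, 2 and 3. KO 1 had 5.37 and KO 2 had 1.30, and the values of OE 1 to 5 were 0.0501, 4.65, 11.3, 131 and 95.5. Ctrl 3, OE 4 and OE 5 were more than an order of magnitude above both KO libraries, and within OE alone Mptx1 covered its whole range. The SD of its log2 level over the 9 libraries other than Ctrl 2 was 2.55, larger than that of 99.7% of the 13056 genes kept. Means were 25.6 ± 40.4 over the 3 Ctrl libraries (mean ± SD), 3.33 ± 2.88 over the 2 KO libraries and 48.6 ± 60.7 over the 5 OE libraries.

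Mptx2 was expressed in every library and followed another course. It was at 54.4, 12.4 and 452 scaled TPM in Ctrl 1, 2 and 3. KO 1 had 88.1 and KO 2 had 248, and the values of OE 1 to 5 were 188, 121, 304, 169 and 547. OE 5 and Ctrl 3 were highest, but KO 2 and the library labelled OE 1, both near the bottom for Mptx1, exceeded OE 4, where Mptx1 peaked. Means were 173 ± 243 over the 3 Ctrl libraries (mean ± SD), 168 ± 113 over the 2 KO libraries and 266 ± 171 over the 5 OE libraries. Across the 9 libraries other than Ctrl 2, Pearson's r between the 2 pentraxins was 0.54 and Spearman's rho 0.38. Mptx2 was closer to Itln1 (r of 0.78, rho of 0.90) and to Mmp7 (r of 0.76, rho of 0.90). Without Ctrl 3, OE 3 and OE 4 as well, r over 6 libraries was 0.55 between the pentraxins, 0.80 for Mptx2 and Itln1 and 0.81 for Mptx2 and Mmp7. Their relatives Crp and Apcs were at 0.374 to 3.34 scaled TPM and at 0.

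The 2 pentraxin genes are close copies, which bears on how firmly their levels can be told apart. Their transcripts align with 91.9% identical columns and share a run of 112 bases, and 17.9% of the 750 stretches of 50 bases in Mptx1 recur in Mptx2. How reads in those stretches were assigned is not given in the sources used here, so low Mptx1 values are uncertain where Mptx2 is high. With 188 scaled TPM of Mptx2, the library labelled OE 1 still had only 0.0501 of Mptx1. The upstream windows are alike as well, with 77.0% identical columns and a shared run of 61 bases, and both are shown with the SOX match in capitals. Its first base is at -104 from the start of Mptx1 (chr1:174330268-174330567, plus strand) and at -125 from that of Mptx2 (chr1:173277707-173278006, minus strand).
Mptx1: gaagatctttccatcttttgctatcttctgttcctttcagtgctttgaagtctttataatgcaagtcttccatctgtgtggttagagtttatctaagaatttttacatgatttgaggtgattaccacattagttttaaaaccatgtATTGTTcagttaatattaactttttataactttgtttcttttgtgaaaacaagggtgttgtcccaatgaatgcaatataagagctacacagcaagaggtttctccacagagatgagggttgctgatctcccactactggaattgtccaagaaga
Mptx2: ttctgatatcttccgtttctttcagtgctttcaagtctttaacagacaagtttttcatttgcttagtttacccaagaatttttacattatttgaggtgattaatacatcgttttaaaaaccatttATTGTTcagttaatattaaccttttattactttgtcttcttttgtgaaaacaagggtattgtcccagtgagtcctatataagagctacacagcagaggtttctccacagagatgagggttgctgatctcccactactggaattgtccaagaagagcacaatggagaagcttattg

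Itln1 (ENSMUSG00000038209, chromosome 1, 171518122 to 171535294) encodes intelectin 1, a secreted lectin that binds sugars of microbial surfaces and that goblet cells can also make. Its level was 757, 123 and 1056 scaled TPM in Ctrl 1, 2 and 3. KO 1 had 335 and KO 2 had 1088, and the values of OE 1 to 5 were 888, 505, 1501, 872 and 2364. The low libraries were Ctrl 2, KO 1 and OE 2, one of each group. Means were 645 ± 476 over the 3 Ctrl libraries (mean ± SD), 712 ± 532 over the 2 KO libraries and 1226 ± 730 over the 5 OE libraries. Itln1 tracked Mmp7 (Pearson's r of 0.89, Spearman's rho of 0.95 over the 9 libraries other than Ctrl 2) and the alpha-defensins (r of 0.80, rho of 0.75). The 8 goblet cell markers checked, Muc2 and Agr2 among them, summed to 1400 to 5223 scaled TPM over the libraries, and OE 2 had the lowest sum. Their part in the Itln1 level was not tested.

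Habp2 (ENSMUSG00000025075, chromosome 19, 56287137 to 56320822) encodes a hyaluronan-binding serine protease known from blood plasma. It was at 1.29, 0 and 4.16 scaled TPM in Ctrl 1, 2 and 3. KO 1 had 0.352 and KO 2 had 1.15, and the values of OE 1 to 5 were 0.800, 0.319, 8.07, 3.86 and 7.07. Ctrl 3, OE 3, OE 4 and OE 5 were again the 4 high libraries, at low levels throughout. Means were 1.81 ± 2.13 over the 3 Ctrl libraries (mean ± SD), 0.752 ± 0.565 over the 2 KO libraries and 4.02 ± 3.53 over the 5 OE libraries. Nupr1 (ENSMUSG00000030717, chromosome 7, 126623249 to 126630861), a transcriptional co-regulator induced by cell stress, was at 4.62, 0.132 and 11.1 scaled TPM in Ctrl 1, 2 and 3, with 3.40 for KO 1 and 2.25 for KO 2. In OE 1 to 5 it was at 2.75, 4.28, 6.87, 3.23 and 9.32. Ctrl 3 was the highest library for Nupr1, and OE 4, high for the 4 genes above, was among the low ones. Means were 5.30 ± 5.54 over the 3 Ctrl libraries (mean ± SD), 2.83 ± 0.818 over the 2 KO libraries and 5.29 ± 2.76 over the 5 OE libraries.

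Without Ctrl 2 the Ctrl means (± SD, n = 2) were 77.4 ± 19.2 scaled TPM for Mmp7, 460.3 ± 434 for Ang4, 907 ± 211 for Itln1, 37.0 ± 49.8 for Mptx1, 253 ± 281 for Mptx2, 91.4 ± 112 for Pnliprp2, 2.72 ± 2.03 for Habp2 and 7.88 ± 4.61 for Nupr1. Each was above the mean over all 3 Ctrl libraries.

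Across the set, the 4 highest libraries were Ctrl 3, OE 3, OE 4 and OE 5 for 4 genes (Ang4, Mptx1, Pnliprp2 and Habp2), in scaled and in deposited values alike. Of these, 3 libraries are those with little Y-linked RNA, and OE 5 had 43.8 TPM of the Y-linked genes. The part of whatever sets those libraries apart in these levels was not tested. Alpha-defensins were high in OE 3 and OE 5 but not in the other two: their mean log2 level was 6.60 in Ctrl 3 and 7.19 in OE 4, within the range of 6.38 to 7.73 of the 5 lower libraries other than Ctrl 2, and 8.14 in OE 3 and 8.77 in OE 5. Relative to the alpha-defensins, the log2 level of Pnliprp2 ran from -4.51 in the library labelled OE 1 to 0.82 in Ctrl 3, and that of Mptx1 from -7.32 in the same library to -0.14 in OE 4. That of Ang4 ran from -0.77 in KO 2 to 2.98 in Ctrl 3. SDs over the 9 libraries other than Ctrl 2 were 2.61 for Mptx1, 1.90 for Pnliprp2, 1.31 for Ang4 and 1.05 for Mptx2, against 0.50 for Itln1 and 0.49 for Mmp7. Lyz1, itself a Paneth product, had an SD of 0.81. Over the 6 libraries left without Ctrl 2, Ctrl 3, OE 3 and OE 4, SDs were 1.94 for Mptx1, 1.40 for Pnliprp2, 0.99 for Ang4, 0.85 for Mptx2, 0.42 for Mmp7 and 0.31 for Itln1.

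**Figure D3:**
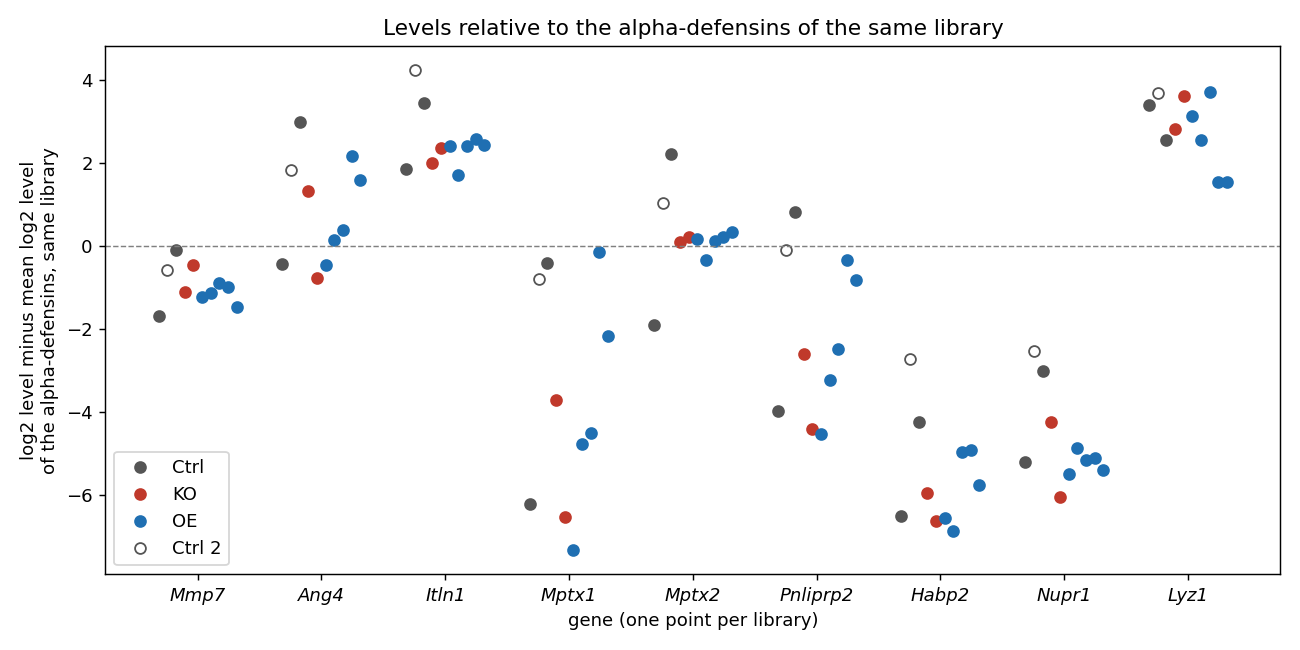
Log2 level of each gene minus the mean log2 level of 16 alpha-defensin genes in the same library (y axis), 1 point per library, for the 8 genes and Lyz1 (x axis); Ctrl is gray with Ctrl 2 open, KO red and OE blue. Itln1 and Mmp7 stay within a narrow band outside Ctrl 2 (SDs of 0.50 and 0.49), while Mptx1 and Pnliprp2 spread widely (SDs of 2.61 and 1.90) within Ctrl and within OE.

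The effect of deleting Stat5 was read from KO against Ctrl. Of the 8 log2 differences 4 were positive, where 53% of all genes tested were, and the median was 0.013 beside 0.038 over all genes. In limma with Benjamini-Hochberg adjustment, 0 of the 8 genes passed an adjusted p of 0.05, and 0% of the 13056 genes did. At an unadjusted p under 0.05 there were 0 of the 8 and 452 genes in all, 3.46% of those tested. The log2 difference was 1.39 for Mmp7 (95% interval -1.08 to 3.86), 1.10 for Mptx2 (-1.54 to 3.74), 0.39 for Itln1 (-1.68 to 2.45) and 0.20 for Ang4 (-2.71 to 3.11). For Mptx1 it was -1.27 (-5.67 to 3.14), for Pnliprp2 -1.02 (-4.48 to 2.43), for Habp2 -0.42 (-2.42 to 1.59) and for Nupr1 -0.17 (-2.0 to 1.65). The adjusted p in limma was 0.943 or higher for each. For Ang4 and Mptx2 the positive log2 differences run against the group means, which were lower in KO than in Ctrl (165 against 314 and 168 against 173 scaled TPM). KO and Ctrl overlapped for all 8 genes, where 9.09% of all genes had both KO libraries above every Ctrl library and 7.27% had both below (8.44% above in deposited values). The sign depended on which control was kept: without Ctrl 2 the median was -1.05 with 1 positive gene (Mmp7, at 0.014), and without Ctrl 3 it was 0.78 with all 8 positive. The KO arm had the same limit, since Mmp7 was at 2.39 without KO 1 and 0.39 without KO 2. Leaving out OE 3 and OE 4 along with Ctrl 3 gave the same KO against Ctrl differences by construction. Beyond the scaling factors, no OE library enters them.

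Overexpression was examined by OE against Ctrl, which shares the Ctrl libraries with the preceding comparison. All 8 log2 differences were positive, where 52.1% of all genes tested were, and the median was 1.05 beside 0.021 over all genes. In limma with Benjamini-Hochberg adjustment, 0 of the 8 genes passed, and 0% of the 13056 genes did; at an unadjusted p under 0.05 there were 0 of the 8 and 797 genes in all. The largest differences were 1.73 for Mptx2 (95% interval -0.38 to 3.84), 1.72 for Mmp7 (-0.26 to 3.70), 1.39 for Ang4 (-0.94 to 3.72) and 1.21 for Itln1 (-0.44 to 2.85), with an adjusted p of 0.755, 0.755, 0.763 and 0.759 in limma. The other 4 were 0.89 for Pnliprp2 (-1.87 to 3.65), 0.77 for Mptx1 (-2.76 to 4.29), 0.76 for Habp2 (-0.85 to 2.36) and 0.46 for Nupr1 (-1.0 to 1.91). The Nupr1 group means were not higher in OE, 5.29 against 5.30 scaled TPM in Ctrl. The size rested on Ctrl 2, the library low in Paneth transcripts: without it the median was 0.14 and 6 of 8 were positive, with Pnliprp2 at -0.10 and Nupr1 at -0.50. Without Ctrl 3 the median was 2.28 with 8 positive, and 4 of the 8 genes (Ang4, Itln1, Mptx2 and Mmp7) had an unadjusted p under 0.05, with a smallest adjusted p of 0.397 in limma. Without Ctrl 1, Mmp7 alone did, at a log2 difference of 2.28 and an adjusted p of 0.565 in limma. The share of all genes under that unadjusted p without Ctrl 3 or without Ctrl 1 is not given here. The counts of the 8 genes in those fits therefore have nothing to be set against. Without Ctrl 3, OE 3 and OE 4 the median was 1.76, again with 8 positive. That fit left Ctrl 1 and Ctrl 2 as the only controls, so Ctrl 2 weighed more in it. No comparison of groups was run without Ctrl 2 as well. OE and Ctrl overlapped for all 8 genes, where 2.21% of all genes had every OE library above every Ctrl library and 1.52% had every one below (1.78% above in deposited values).

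In OE against Ctrl the log2 differences of all 16 alpha-defensins were also positive (median 1.97, 0 called). In KO against Ctrl all 16 were positive too, with a median of 1.01 and 0 called, where the 8 genes split 4 and 4. Both results leaned on Ctrl 2, where the mean log2 level of the alpha-defensins was 2.71. That level was 7.70 in Ctrl 1 and 6.60 in Ctrl 3, beside 6.38 in KO 1, 7.73 in KO 2 and 7.19 (OE 4) to 8.77 (OE 5) in OE. Among marker lists of other cell types the size differed from list to list. In OE against Ctrl the medians were 0.84 for proliferation, 0.66 for fibroblasts, 0.52 for T cells and 0.44 for macrophages. They were 0.27 for stem cells, 0.22 for goblet cells, 0.080 for tuft cells and -0.017 for enteroendocrine cells. Of 8 B and plasma cell markers all 8 were positive in OE against Ctrl, with a median of 1.75, and 11 of 12 enterocyte markers were negative, with a median of -0.61. The mean log2 level of the enterocyte markers was 9.58 in Ctrl 2, against 7.12 in Ctrl 1 and 5.64 in Ctrl 3. In OE it ran from 5.00 (OE 4) to 7.78 (OE 1), so the negative sign leaned on Ctrl 2. Differences of the lists without Ctrl 2 are not given. All 7 T cell markers tested were positive in OE against KO (median 1.86) and negative in KO against Ctrl (median -1.19), with 0 called in each list. Summed over the list, T cell markers were at 44.0 to 181 scaled TPM in Ctrl, 24.5 and 67.6 in KO and 82.0 to 359 in OE, and B and plasma cell markers at 33.7 to 194, at 71.9 and 232, and at 119 to 1249.8. Their part in the levels of the 8 genes was not tested. Set relative to the alpha-defensins of each library, a step that lowers every gene alike, the 8 genes were at -1.63 (Nupr1) to -0.35 (Mptx2) in OE against Ctrl, with a smallest adjusted p of 0.234 in limma. The median over all genes was then -2.06, below each of the 8.

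In OE against KO all 8 log2 differences were positive, beside 49.9% of all genes tested, with a median of 0.997 against -6.2e-04 over all genes. Of the 16 alpha-defensins 14 were positive too (median 0.77, 0 called). So were 8 of 8 tuft cell markers (0.84) and 11 of 12 enterocyte markers (0.69). Lists that were mostly negative were those of macrophages (0 of 7 positive, median -0.34), fibroblasts (1 of 6, -1.06), enteroendocrine cells (1 of 7, -0.17) and stem cells (2 of 7, -0.12). In limma with Benjamini-Hochberg adjustment 0 of the 8 genes and 0% of the 13056 genes passed, with 0 of the 8 and 385 genes in all at an unadjusted p under 0.05. Differences were largest at 2.03 for Mptx1 (95% interval -2.01 to 6.07), 1.91 for Pnliprp2 (-1.25 to 5.08), 1.19 for Ang4 (-1.48 to 3.86) and 1.17 for Habp2 (-0.67 to 3.01). Those genes were grouped above by having their highest levels in Ctrl 3, OE 3, OE 4 and OE 5. Larger differences of OE against KO follow from that grouping. Itln1 was at 0.82 (-1.07 to 2.71), Mptx2 at 0.63 (-1.79 to 3.05), Nupr1 at 0.63 (-1.04 to 2.30) and Mmp7 at 0.33 (-1.93 to 2.60). The adjusted p in limma was 1 for each. Beyond the scaling factors the estimates do not use the Ctrl libraries, but the intervals and p-values do, through the spread pooled over the 3 groups: with only OE and KO fitted, the interval was -0.74 to 3.12 for Ang4 and -0.97 to 1.63 for Mmp7. In every one of the 24 pairings of a gene with a comparison the groups overlapped, in scaled and in deposited values, where 4.04% of all genes had every OE library above both KO libraries and 4.43% had every one below (3.09% above in deposited values). Without KO 1, 5 of 8 remained positive, with Mmp7 at -0.67, Mptx2 at -0.11 and Itln1 at -0.027. Without Ctrl 3, OE 3 and OE 4, the libraries with little Y-linked RNA, all 8 were positive with a median of 0.70 and a smallest adjusted p of 0.926 in limma.

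**Figure D4:**
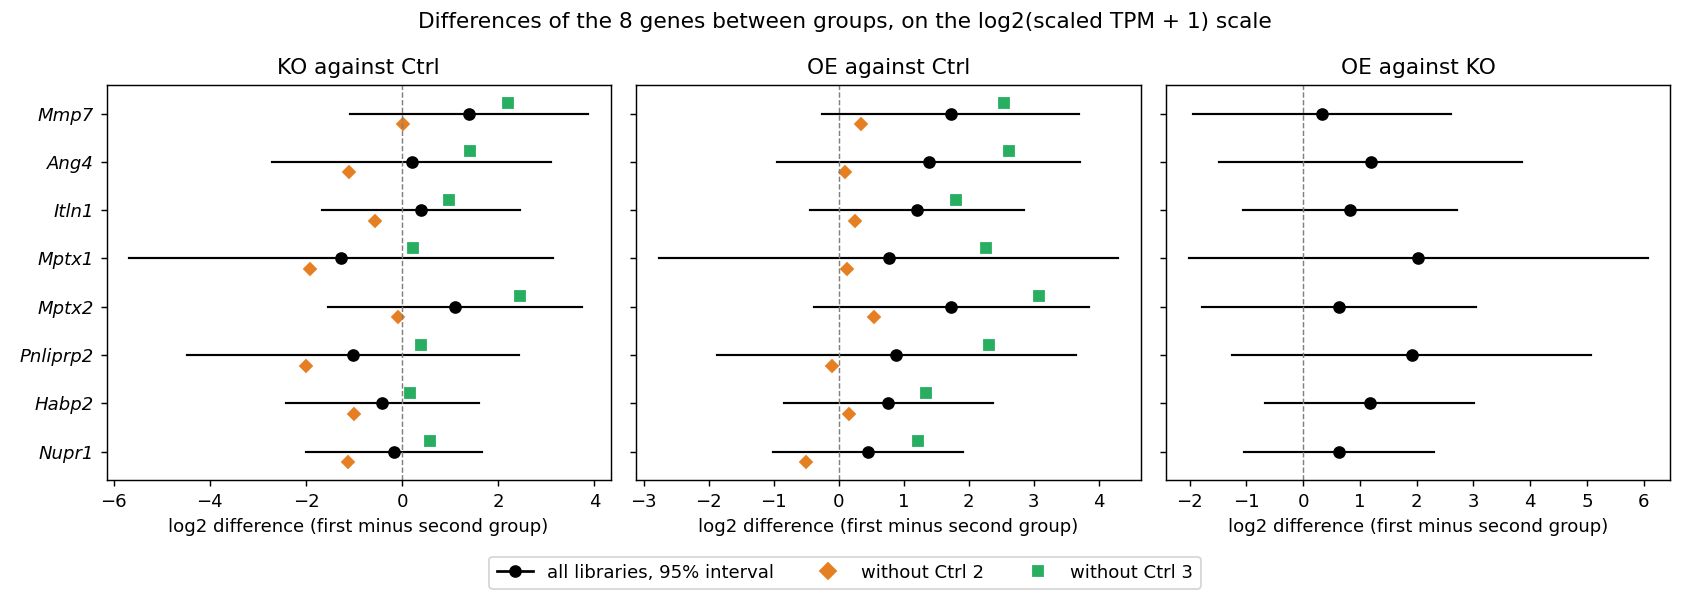
Log2 differences of the 8 genes (y axis) on the log2(scaled TPM + 1) scale (x axis) in 3 panels, 1 per pair of groups; black points and lines are the limma estimate and its 95% interval with all libraries, orange diamonds the estimate without Ctrl 2 and green squares without Ctrl 3. Every interval includes 0, estimates of OE against KO are shown with all libraries, and the estimates against Ctrl move to lower values without Ctrl 2 and to higher values without Ctrl 3.

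Other genes that make and release Paneth granules were read from lists of related genes. Of 27 regulators of Paneth cell fate and upkeep, 25 had an ID in the files and 24 were tested, with 0 called in any comparison. The number positive was 15 in KO against Ctrl, 11 in OE against Ctrl and 13 in OE against KO, with medians of 0.073, -0.021 and 0.020. Xbp1, a transcription factor that Paneth cells need for secretion, was at 90.4 ± 6.28 scaled TPM over the 3 Ctrl libraries (mean ± SD), 105 ± 53.1 over the 2 KO libraries and 88.1 ± 13.9 over the 5 OE libraries. Ctnnb1, the Wnt signal transducer beta-catenin, was at 87.1 ± 35.3, 131 ± 102 and 106 ± 107 in the same order. Of 21 genes of granule traffic and release, 17 were tested and 0 called, with 6, 8 and 14 positive and medians of -0.25, -0.0029 and 0.13 in the same order of comparisons. Stxbp2, a Munc18 protein of granule fusion, was at 391 ± 104 scaled TPM, 293 ± 150.5 and 396 ± 104 for Ctrl, KO and OE, and Vamp8, a granule SNARE, at 45.1 ± 29.6, 29.8 ± 11.4 and 39.5 ± 17.2.

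Among 19 antimicrobial genes of the epithelium outside the set, 18 were tested and 0 called, with 12, 13 and 8 positive and medians of 0.21, 0.58 and -0.051. Reg3b, a secreted lectin, was at 1467 ± 1190.1 scaled TPM over the 3 Ctrl libraries (mean ± SD), 2852 ± 56.4 over the 2 KO libraries and 2672 ± 1632 over the 5 OE libraries, and Reg3g, a close relative whose reads may be hard to separate, at 506 ± 241, 1850.0 ± 924 and 981 ± 540. Lyz1 was at 950.3 ± 1102, 1591 ± 1420 and 1556 ± 1257. The low Ctrl mean of Lyz1 leaned on Ctrl 2 (84.1), and without that library it was 1383 ± 1142 (n = 2). Its level is also uncertain because 16.1% of its stretches of 50 bases recur in Lyz2, which had a lower mean of 64.9 scaled TPM. Of 14 genes of the integrated stress response, the program in which Nupr1 takes part, 14 were tested and 0 called, with medians of -0.038, 0.099 and 0.27. Atf4, its central transcription factor, was at 80.9 ± 19.2, 66.1 ± 20.3 and 90.9 ± 23.6 scaled TPM for Ctrl, KO and OE. Of 14 genes of trypsin-type processing and its inhibitors, 6 were tested and 0 called, with 5, 5 and 3 positive and medians of 0.30, 0.46 and 0.16. Prss1, Prss2, Prss3, Try4, Try5 and Try10 were at 0 in every library. Spink1, an inhibitor of the list, was lower outside Ctrl, at 388 ± 445, 138 ± 26.7 and 227 ± 168 scaled TPM for Ctrl, KO and OE. Spink4, a Kazal-type inhibitor that goblet cells make, was at 291 ± 266, 314 ± 4.97 and 566 ± 277 scaled TPM for Ctrl, KO and OE. The marker lists of other cell types had 0 genes called in every comparison.

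Genes most like each member were named by Pearson's r of log2 levels over the 10 libraries among 7235 genes with a mean of at least 5 scaled TPM, leaving out predicted genes and pseudogenes. The closest to Ang4 was Rab27b (r of 0.95), a GTPase of granule release, at 3.01 to 12.9 scaled TPM. For both Pnliprp2 (r of 0.93) and Mptx1 (r of 0.89) it was Reg4, a secreted lectin-like protein of the Reg family, which ran from 3.77 to 227 scaled TPM. Without Ctrl 2 these values were 0.92, 0.93 and 0.88. Itln1 was closest to Defa31 (0.95), an alpha-defensin with near-identical copies, and Mmp7 to Mcm5 (0.97), a helicase subunit of DNA replication, which fell to 0.85 without Ctrl 2. Mptx2 was closest to the proteasome gene Psmd14 (0.98), Nupr1 to the acyltransferase Gpat4 (0.97) and Habp2 to the helicase gene Dhx32 (0.92). Over so many genes and 10 libraries that share their scaling, high values of r arise readily, and they are given as description.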

How the data were processed

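TPM per Ensembl gene ID were deposited by the authors for 10 libraries. The unit stands in the header of 9 files and was taken for Ctrl 1 from its values, which sum like the others (979539 to 994373 per library). TopHat, Cufflinks and mm10 are named without versions in the submitters' processing notes. Which tool and annotation gave the TPM is not stated there. Crypts came from shaking tissue in 10 mM EDTA at 37 C for 30 min, per the labels' protocols.

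Symbols and coordinates came from GENCODE M21 (GRCm38) for 27458 of 28987 IDs, and promoter windows from RefSeq (GRCm38.p6). TPM were divided by median-ratio factors over the 11146 genes above 0 in every library. Genes reaching 1 TPM in 2 or more libraries entered limma 3.58.1, run in R 4.3.3 with a trend of variance on mean, as log2(scaled TPM + 1), with 3 group means over all 10 libraries and Benjamini-Hochberg adjustment over 13056 genes. The fit was tested on simulated data. The depth is unknown, so no counting interval is given. No pair of libraries held identical tables. The members, the lists and the tests were chosen with earlier results of these data known.

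The rule for named genes took the 8 members, Stat5a and Stat5b, Lyz1 and the alpha-defensins, relatives of the members, up to 4 genes of a list by highest mean level, and the 2 genes most like each member by Pearson correlation. Alternatives were TPM as deposited, values without mitochondrially encoded genes or relative to alpha-defensins, pseudocounts of 0.1 and 5, no filter or one of 5 TPM, only the groups compared, a replicate block and each library left out. Leaving out Ctrl 3, OE 3 and OE 4 together was added after seeing the data. Leaving out Ctrl 2 with them was also added then, for correlations and spreads only and not for the comparisons of groups.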

Additional observations from a re-analysis of the deposited data

How the results depend on the processing

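In each of the alternatives run, 0 of the 8 genes were called in each comparison, and TPM as deposited, values without mitochondrially encoded genes, a pseudocount of 5 and a filter at 5 TPM kept every direction. As deposited, the median of all genes was 0.38 in KO against Ctrl and 0.36 in OE against Ctrl. Counts over all genes, 0 in each comparison, moved to 3 in KO against Ctrl and 3 in OE against Ctrl relative to alpha-defensins, to 5 in KO against Ctrl and 7 in OE against KO with no filter, to 1 in KO against Ctrl and 1 in OE against Ctrl with only the groups compared, and to 1 in OE against Ctrl and 1 in OE against KO without Ctrl 3, OE 3 and OE 4. When 1 library was left out they ran from 0 to 2 in KO against Ctrl, from 0 to 1 in OE against Ctrl and from 0 to 2 in OE against KO, each highest without KO 1. The cause was not tested.

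Setting values relative to alpha-defensins shifts every gene alike, with all-gene medians of -1.35 in KO against Ctrl, -2.06 in OE against Ctrl and -0.69 in OE against KO, and signs turn by that shift alone. They turned in KO against Ctrl for Ang4 (-1.19), Itln1 (-1.0) and Mptx2 (-0.29). They turned in OE against Ctrl for Ang4 (-0.69), Itln1 (-0.87), Mptx1 (-1.32), Mptx2 (-0.35), Mmp7 (-0.36), Pnliprp2 (-1.19), Nupr1 (-1.63) and Habp2 (-1.32), and in OE against KO for Mptx2 (-0.062), Mmp7 (-0.36) and Nupr1 (-0.067). Nupr1 in KO against Ctrl was 0.31 with a pseudocount of 0.1. Without Ctrl 3, OE 3 and OE 4, KO against Ctrl gave 0.23 for Mptx1, 0.39 for Pnliprp2, 0.58 for Nupr1 and 0.17 for Habp2. These are the values without Ctrl 3 alone, since OE libraries do not enter that difference beyond the scaling factors.

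The replicate numbers are shared across groups, but same-numbered libraries did not deviate together (r of deviations from -0.18 to 0.063), so they share only a number. OE 4 and OE 5 have no same-numbered library in Ctrl or KO. With the replicate block these libraries therefore do not enter the differences between groups. Signs that turn in comparisons of OE thus come from fewer OE libraries, and cannot be read as an effect of pairing. With the replicate block the count over all genes in OE against Ctrl was 3 (Atp6v0c, Gm6311 and Rps2-ps10, named after their values were seen). Signs turned with the replicate block in KO against Ctrl for Pnliprp2 (0.048), Nupr1 (0.34) and Habp2 (0.30), in OE against Ctrl for Mptx1 (-1.14) and Pnliprp2 (-0.40), and in OE against KO for Ang4 (-0.54), Mptx1 (-1.01), Mptx2 (-0.48), Mmp7 (-0.35), Pnliprp2 (-0.44), Nupr1 (-0.0064) and Habp2 (-0.016).

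When 1 library was left out, KO against Ctrl ran from -1.10 to 1.42 for Ang4, -0.56 to 1.23 for Itln1, -2.12 to 0.23 for Mptx1, -0.090 to 2.45 for Mptx2, -2.01 to 0.39 for Pnliprp2, -1.13 to 0.58 for Nupr1 and -1.01 to 0.17 for Habp2. OE against Ctrl ran from 0.091 to 2.61 for Ang4, 0.26 to 1.80 for Itln1, 0.54 to 3.08 for Mptx2, 0.35 to 2.54 for Mmp7 and 0.16 to 1.35 for Habp2, each lowest without Ctrl 2 and highest without Ctrl 3, and from -0.088 to 2.26 for Mptx1, -0.097 to 2.30 for Pnliprp2 and -0.50 to 1.21 for Nupr1. OE against KO ran from -0.027 to 1.67 for Itln1, -0.11 to 1.37 for Mptx2 and -0.67 to 1.34 for Mmp7. Leaving out a KO library leaves 1, which is then assumed to vary like the other groups. The depth of the libraries is unknown, so low values of Habp2, Nupr1 and Mptx1 have no counting limit.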
